A study of Mus musculus with 22 samples.

Results

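The cytochrome P450 genes of families 1 to 4 of the mouse liver were followed across 6 treatments of newborn pups. The members were all genes of the deposited expected-count table whose symbol is Cyp, a family number of 1 to 4, a subfamily letter and a final number, and whose expected count averaged at least 10 over all libraries. This rule kept 51 of 75 genes that fit the name pattern, out of 55291 genes in the table: 2 of family 1, 29 of family 2, 7 of family 3 and 13 of family 4. Within the name pattern, the members were thus chosen by their mean count over all groups, with no difference between groups used. The families themselves were chosen with earlier results of these data known. Just inside the rule were Cyp2b10, Cyp2g1 and Cyp3a57, with mean expected counts of 10.8, 16.5 and 19.6, and just outside were Cyp2c29, Cyp2c65 and Cyp1a1, with 4.64, 3.50 and 2.64. Of the 24 genes left out, 9 had no count in any library. Without the group in which it was highest, 1 member, Cyp2b10, would have fallen below the rule.

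The livers came from 22 male WT C57BL/6 mice, each injected into a vein on postnatal day 1, and the labels place their collection at 36 hours after the injection. Of these, 3 pups received rAAV9-ST3GAL5.v1 (labelled rAAV9.CB.ST3GAL5), an AAV9 vector in which the ubiquitously active CB promoter drives the human ST3GAL5 cDNA, and 3 received a vector labelled rAAV9.CB.ST3GAL5.E332K, called the E332K vector here, which the study's text does not describe. Another 4 received AAV9.EGFP (rAAV9.CB.EGFP), with the same promoter and a fluorescent protein as cargo, and 4 received rAAV9-ST3GAL5.v2 (rAAV9.Syn1.ST3GAL5.miR122BS), whose ST3GAL5 cDNA is under the neuronal Syn1 promoter and target sites for the hepatocyte microRNA miR-122 are placed in the transcript. The controls were 4 pups given AAV9.empty, a capsid with no vector genome, and 4 given PBS. ST3GAL5 encodes GM3 synthase, which makes the ganglioside GM3, and the study asked why the CB vector with this cDNA was toxic to the liver. The study's patient stem cells were homozygous for ST3GAL5 E332K, and untreated neurons made from them lacked the major brain gangliosides. Litters are not named in the labels, and p-values here stand for differences relative to the scatter among the livers sampled.

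Cytochrome P450 enzymes of these families are heme proteins of the endoplasmic reticulum that insert an oxygen atom into small lipophilic molecules, with electrons passed on by a reductase or by cytochrome b5. Families 1, 2 and 3 hold most of the enzymes that oxidize drugs and other foreign compounds, and they also act on steroids, bile acids and arachidonic acid, while family 4 hydroxylates fatty acids and eicosanoids at or near the end of the chain. In the liver they are made chiefly by hepatocytes, many of them only in the hepatocytes around the central vein, and their genes are controlled by hepatocyte transcription factors and by the receptors AHR, CAR, PXR and PPAR-alpha.

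Total expected counts ranged from 17164502 to 24305788 per library, and 0.250% to 0.706% of them lay in the 51 genes. The tissue label held, since hepatocyte secreted proteins (20 genes, Alb and the apolipoproteins among them) summed to 112538 to 133004 TPM (transcript abundance scaled to length and library) even in the livers given rAAV9-ST3GAL5.v1. Red cell genes were abundant too in these newborn livers, at 79456 to 98286 TPM (13 genes) with rAAV9-ST3GAL5.v1 and 74165 to 91979.7 TPM with AAV9.empty. Livers differed in 1 respect that the labels do not give. Gm47283, a gene on chromosome Y, lacked any count in 9 of 22 livers, which were 3 of 3 with rAAV9-ST3GAL5.v1, 0 of 3 with the E332K vector, 3 of 4 with AAV9.EGFP, 2 of 4 with rAAV9-ST3GAL5.v2 (replicates 3 and 4), 1 of 4 with AAV9.empty (replicate 4) and 0 of 4 with PBS, and it had 10.1 to 31.8 CPM (counts relative to library size, not corrected for gene length) in the others. Comparisons were therefore also made among livers alike in Gm47283, and those that change a result are given beside it. What Gm47283 marks was not tested. No other gene of chromosome Y is reported here, and the counts of Gm47283 alone do not settle the sex of a liver.

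Many of the genes lie near close copies. By chromosome, 9 Cyp2c genes were on chromosome 19, 7 Cyp3a genes on chromosome 5 and 5 Cyp2d genes on chromosome 15. Another 11 members of the Cyp2 family were on chromosome 7 and 8 members, of Cyp2j, Cyp4a and Cyp4b, on chromosome 4. Some lie apart from the rest on their chromosome, such as Cyp2e1 and Cyp2r1 on chromosome 7, Cyp2c23 on chromosome 19 and Cyp3a13 on chromosome 5. Reads that match several copies were shared out among them in the expected counts. In the GENCODE transcripts, over 50% of the 31-base stretches of 8 members also occurred in another gene, over 10% in 29 members and under 1% in 8 members. Cyp2c40 shared 72.6% of its stretches, Cyp2c67 67.6% and Cyp2a4 58.1%, so that values of these genes are less certain than those of Cyp2e1 (5.83%), Cyp1a2 (7.67%), Cyp2c70 (0%) or Cyp2c23 (0%). Strand was not kept in the libraries, and exons of 5 members (Cyp2a4, Cyp2f2, Cyp2s1, Cyp2u1 and Cyp4f18) overlap those of a gene on the other strand, whose reads cannot be told apart from theirs.

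Where such copies differ most is shown by 30 coding bases of 3 neighbours, of which Cyp2c37 rose and Cyp2c54 fell with the E332K vector. The coding sequences of Cyp2c37, Cyp2c50 and Cyp2c54, each 1473 bases long, are 95.1% to 96.1% identical in pairs. Positions 821 to 850 of each are printed 5′ to 3′ from the GENCODE transcripts of GRCm38, with capitals at the 11 positions where the 3 differ. This window was picked as the stretch with the most differences, so the coding sequence as a whole differs less.
Cyp2c37: aaGaTgGcaaTCaAccAttgCaaaataGGC
Cyp2c50: aaAaCgGcaaCTaTccAttgAaaaataGGC
Cyp2c54: aaGaTgAcaaTCaTccTttgAaaaataATT
Cyp2a4 and Cyp2a5, each 1485 coding bases long and 98.5% identical, differ less. Their positions 596 to 625 hold 3 differences, again in capitals and again the window with the most.
Cyp2a4: tgtcactTcttAgaatgatgctgggaagcC
Cyp2a5: tgtcactGcttCgaatgatgctgggaagcT

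Promoters were searched in windows from 250 bases before to 50 bases after the RefSeq start, on build GRCm38.p6, on both strands. RefSeq windows matched 42 of the 51 members by symbol. The letters TTGCNNAA, a core bound by C/EBP factors, occurred in 12 of the 42 windows (28.6%) and in 10.8% of all 27025 gene windows. AGGTCA, the half-site of nuclear receptors, was in 13 (31%, against 16% of all), TATAAA in 18 (42.9%, against 14.2%) and GCGTG, the core of the AHR response element, in 9 (21.4%, against 32.5%). TTATGTAA, the site of the PAR bZIP factors, was in 0 of the 42, against 0.955% of all. Matches of different motifs were counted separately, also where they overlapped, and binding was not measured. Close copies can hold the same stretch, so the 42 windows are not independent. Their shares count some stretches repeatedly and were not tested against those of all genes. A few 30-base stretches are printed 5′ to 3′ on the strand of the gene, with the TTGCNNAA match on either strand in capitals. Those of the Cyp2c and Cyp2a genes are shown because genes with the same letters there had different values with rAAV9-ST3GAL5.v1. The stretch of Cyp4f14 is shared with no other gene printed.
Cyp2c40, chr19:39812801-39812830, minus strand: taactagttgaTTGCACAAagatgcccaaa
Cyp2c67, chr19:39649109-39649138, minus strand: taactagttgaTTGCACAAagatgcccaaa
Cyp2c69, chr19:39886786-39886815, minus strand: taactagttgaTTGCACAAagatgcccaaa
Cyp2a4, chr7:26307111-26307140, plus strand: aggtgaaatagTTGCATAAtcaagaccaaa
Cyp2a5, chr7:26835257-26835286, plus strand: aggtgaaatagTTGCATAAtcaagaccaaa
Cyp4f14, chr17:32917487-32917516, minus strand: gatgtccgtgtTTTTGCAAgcctatgacaa
The stretch of Cyp2c40, Cyp2c67 and Cyp2c69 is the same in all 3, and the stretch of Cyp2a4 is the same as that of Cyp2a5. From the RefSeq start, the match lies at −5 in Cyp2c40, −85 in Cyp2c67 and −35 in Cyp2c69. In Cyp2a4 and Cyp2a5 it lies at −70 and −71.

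On the TPM scale, which corrects for transcript length, Cyp2d26 and Cyp2e1 were the most abundant members, with means of 743 and 729 TPM over the 22 livers. After them came Cyp2d10 (384 TPM), Cyp4a14 (221 TPM), Cyp2c68 (173 TPM), Cyp3a11 (164 TPM), Cyp2d9 (140.4 TPM) and Cyp3a16 (129 TPM). Cyp3a16 is a form of the fetal and newborn liver and Cyp3a11 the chief adult form. Cyp1a1, the family 1 gene most inducible through AHR, was below the rule in these livers.

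The summed level of the 51 genes was lowest with rAAV9-ST3GAL5.v1. It came to 1945, 1856 and 2577 TPM in the livers given rAAV9-ST3GAL5.v1, 3341, 3351 and 4090.3 TPM with the E332K vector, 3384, 3756, 3584 and 3756 TPM with AAV9.EGFP, 3444, 3558, 3255 and 3114 TPM with rAAV9-ST3GAL5.v2, 3902, 4182, 3976 and 3503 TPM with AAV9.empty and 4911, 3866, 4475 and 4620.1 TPM with PBS. All 3 livers given rAAV9-ST3GAL5.v1 lay below each of the 19 others, while the other 5 groups overlapped with at least 1 of the rest. The mean was 2126 ± 393 TPM (SD, n = 3) against 3890.4 ± 284 TPM with AAV9.empty (SD, n = 4), or 54.6% of it. The part of Cyp2e1 in this sum was 201 ± 39.6 TPM with rAAV9-ST3GAL5.v1 and 922 ± 111 TPM with AAV9.empty, and that of the 5 Cyp2d genes 959 ± 121 and 1327 ± 94.6 TPM in the same order (SD, n = 3 and n = 4). The secreted hepatocyte proteins summed to 79.8% of the AAV9.empty mean. In bulk RNA, fewer hepatocytes and less P450 RNA per hepatocyte cannot be told apart.

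**Figure D1:**
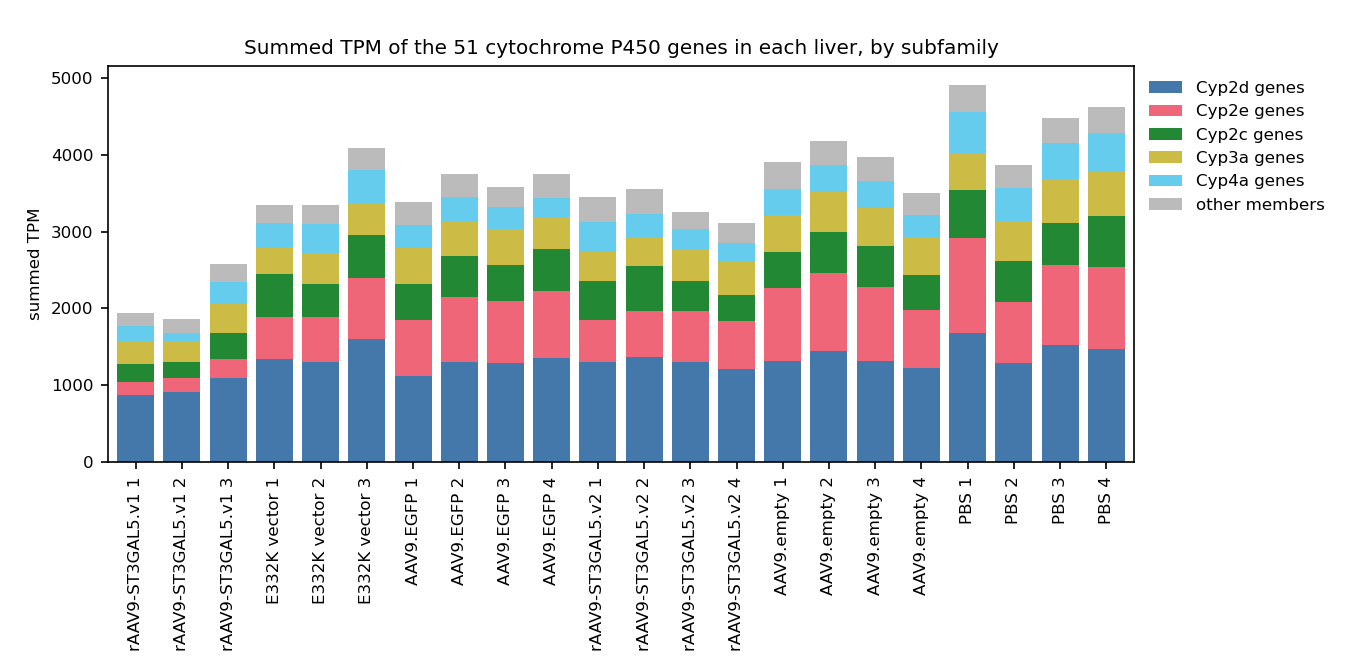
Summed TPM of the 51 cytochrome P450 genes in each of the 22 livers (bars, 1 per liver, stacked by subfamily; the horizontal axis names group and replicate). The 3 livers given rAAV9-ST3GAL5.v1 reach 1856 to 2577 TPM and lie below all others, and the Cyp2e1 layer is the thinnest in them.

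Against AAV9.empty, 15 of the 50 members tested fell and 1 rose with rAAV9-ST3GAL5.v1, counting changes of 2-fold or more with an adjusted p of 0.05 or less, which are called below. Over all 14876 genes tested, 3.78% fell and 4.21% rose by the same thresholds. Without a minimum fold, 28 members fell and 1 rose, against 14.3% and 13.8% of all genes. The median log2 fold change of the members was −0.82, and that of all genes 0.02. Of the 50, 31 were lower in each of the 3 livers given rAAV9-ST3GAL5.v1 than in any of the 4 given AAV9.empty, as were 19.3% of all genes. The fall touched every family, with called members in Cyp1a, Cyp2b, Cyp2c, Cyp2e, Cyp2f, Cyp2j, Cyp3a, Cyp4a and Cyp4f. Beside Cyp1b1, 8 members had log2 fold changes above 0, from 0.10 for Cyp4a32 to 0.70 for Cyp2a4, and did not pass. Cyp2b10 had too few counts to be tested here.

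**Figure D2:**
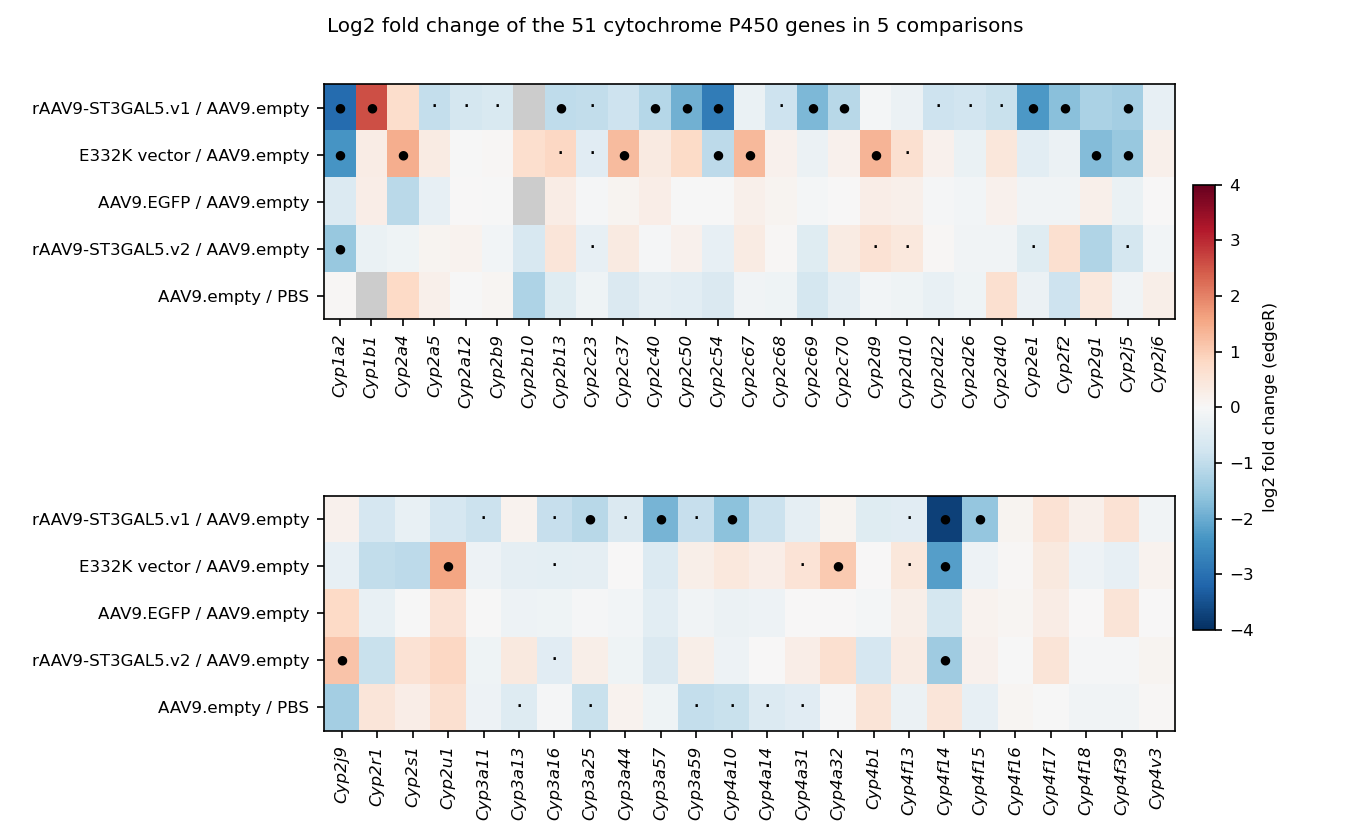
Log2 fold change (colour, edgeR) of the 51 members (columns, by subfamily) in 5 comparisons (rows). A large dot marks an adjusted p of at most 0.05 with at least a 2-fold change, a small dot an adjusted p of at most 0.05 alone, and grey a gene not tested. The row of rAAV9-ST3GAL5.v1 holds 16 large dots and that of the E332K vector 11, and that of AAV9.EGFP holds no dot.

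In family 1, the 2 members went opposite ways. Cyp1a2, a pericentral enzyme that oxidizes caffeine and aromatic amines (chr9:57676937-57683703, GRCm38), had 3.60, 9.04 and 4.79 CPM with rAAV9-ST3GAL5.v1, against 60.6, 51.8, 48.9 and 35.4 CPM with AAV9.empty. The groups were far apart, the log2 fold change being −3.07 (SE 0.30, adjusted p = 2.21e-04). Cyp1b1, which acts on estradiol and polycyclic hydrocarbons chiefly outside the liver (chr17:79701537-79715061), had 3.40, 5.55 and 1.66 CPM with rAAV9-ST3GAL5.v1, against 0.234, 0.262, 0.702 and 1.17 CPM with AAV9.empty. Its groups did not overlap either, the log2 fold change being 2.58 (SE 0.57, adjusted p = 0.00928), but AAV9.empty had a mean of only 11.8 counts. On log2(TPM + 0.1) with no filter on low values, limma gave 2.03 (adjusted p = 0.0519), and a minimum mean TPM of 1 left the gene untested.

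Cyp2e1, which oxidizes ethanol and acetaminophen in hepatocytes near the central vein (chr7:140763739-140774987), lost most of its RNA with rAAV9-ST3GAL5.v1. It had 221, 256 and 323 CPM with rAAV9-ST3GAL5.v1, against 1408, 1479, 1352 and 1044 CPM with AAV9.empty. The groups did not overlap, and the log2 fold change was −2.30 (SE 0.16, adjusted p = 7.05e-05). Cyp2f2, an enzyme of naphthalene oxidation that marks periportal hepatocytes in the mouse, had 5.80, 10.8 and 13.5 CPM, against 45.6, 37.1, 25 and 20.6 CPM with AAV9.empty. It was lower in all 3 livers, at −1.66 (SE 0.33, adjusted p = 0.0057). Separation was narrower for Cyp2f2, whose highest liver with rAAV9-ST3GAL5.v1 and lowest with AAV9.empty were 13.5 and 20.6 CPM.

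All 9 Cyp2c members had negative log2 fold changes, from −2.78 to −0.26, and 5 were called. Enzymes of this subfamily oxidize drugs and make epoxides of arachidonic acid. Cyp2c54 had 0.815, 0.983 and 0.690 CPM with rAAV9-ST3GAL5.v1, against 5.23, 4.92, 7.51 and 5.39 CPM with AAV9.empty, the log2 fold change being −2.78 (SE 0.25, adjusted p = 1.67e-04). Its neighbour Cyp2c50 had 1.05, 1.42 and 1.79 CPM with rAAV9-ST3GAL5.v1, against 3.88, 4.66, 6.27 and 7.14 CPM with AAV9.empty, at −1.92 (SE 0.28, adjusted p = 0.00146). In neither gene did the groups overlap. Cyp2c37, the third of the copies printed above, had 33.7, 16.2 and 45.1 CPM, against 41.3, 55.6, 70.9 and 59.0 CPM with AAV9.empty, and its log2 fold change of −0.83 (SE 0.30, adjusted p = 0.0653) did not pass.

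Cyp2c69 had 11.3, 7.42 and 19.6 CPM with rAAV9-ST3GAL5.v1, against 45.7, 54.4, 53.5 and 26.8 CPM with AAV9.empty, the log2 fold change being −1.80 (SE 0.33, adjusted p = 0.00413). Its highest liver with rAAV9-ST3GAL5.v1 lay below its lowest with AAV9.empty. Cyp2c40 was called too, at −1.14 (SE 0.27, adjusted p = 0.0133), but fell out of the calls without replicate 1 of rAAV9-ST3GAL5.v1 (adjusted p = 0.0629) and without replicate 2 (−0.91). Cyp2c67, with the same 30 promoter bases as these 2, had 6.28, 5.16 and 7.47 CPM, against 5.51, 7.38, 9.62 and 7.96 CPM with AAV9.empty, and overlapping groups at −0.26 (SE 0.21, adjusted p = 0.388). Cyp2c70, which turns bile acids into the muricholic acids of mice and shares none of its 31-base stretches, stood at −1.11 (SE 0.23, adjusted p = 0.00691), and at −0.88 without replicate 1 of rAAV9-ST3GAL5.v1. Cyp2c68 at −0.84 and Cyp2c23, an arachidonate epoxygenase, at −0.98 passed the test (adjusted p = 0.00782 and 4.09e-04) with changes below 2-fold.

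Of the 5 Cyp2d genes, relatives of a major human drug oxidase, 3 fell, each by less than 2-fold. Cyp2d26, the most abundant member of all, had 553, 711 and 681 CPM with rAAV9-ST3GAL5.v1, against 1090.1, 1236, 1095 and 982 CPM with AAV9.empty, the log2 fold change being −0.75 (SE 0.11, adjusted p = 0.00148). The groups were separate, but the change stayed below 2-fold, as for Cyp2d22 at −0.82 and Cyp2d40 at −0.90 (adjusted p = 0.00533 and 0.0178). Cyp2d10 at −0.23 (SE 0.0929, adjusted p = 0.0977) and Cyp2d9 at −0.08 (SE 0.20, adjusted p = 0.789) did not pass. Cyp2d9, a steroid hydroxylase that is male-biased in adult mice, had 131, 78.5 and 169 CPM with rAAV9-ST3GAL5.v1, on both sides of the 139, 131, 136 and 134 CPM with AAV9.empty.

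Among the smaller subfamilies, Cyp2j5, an arachidonate epoxygenase, had 15.5, 23.7 and 23.6 CPM with rAAV9-ST3GAL5.v1, against 63.2, 53.7, 51.2 and 49.8 CPM with AAV9.empty, the log2 fold change being −1.37 (SE 0.16, adjusted p = 4.38e-04). No liver of 1 group reached the other. Cyp2b13 was called at −1.03 (SE 0.20, adjusted p = 0.00534), and had −0.98 without replicate 1 of AAV9.empty and −0.96 without replicate 1 of rAAV9-ST3GAL5.v1. Of the near-identical Cyp2a4 and Cyp2a5, Cyp2a5, the coumarin hydroxylase, was lower at −0.96 (SE 0.29, adjusted p = 0.0375), while Cyp2a4, a steroid hydroxylase, had 12.7, 3.24 and 17.1 CPM with rAAV9-ST3GAL5.v1 and 4.11, 6.02, 9.29 and 8.06 CPM with AAV9.empty, with overlap and 0.70 (SE 0.46, adjusted p = 0.298). Replicate 2 of rAAV9-ST3GAL5.v1 was its lowest, and without it Cyp2a4 was called higher at 1.13 (adjusted p = 0.0109).

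In family 3, whose enzymes oxidize many drugs and steroids, 6 of the 7 members passed as lower and 2 of these by 2-fold. Cyp3a25 had 20.9, 23.0 and 26.8 CPM with rAAV9-ST3GAL5.v1, against 61.0, 51.2, 50.7 and 44.3 CPM with AAV9.empty, the log2 fold change being −1.12 (SE 0.12, adjusted p = 3.91e-04). Cyp3a57, a member near the threshold of the rule, had 0.527, 0.147 and 0.365 CPM, against 1.82, 1.57, 1.08 and 0.631 CPM with AAV9.empty, at −1.85 (SE 0.51, adjusted p = 0.0259). Both pairs of groups were separate, but the call of Cyp3a57 was lost without any 1 of replicates 2 and 3 of rAAV9-ST3GAL5.v1 or 1 and 2 of AAV9.empty, with adjusted p of 0.0589 to 0.0689. The abundant Cyp3a11 had 181, 179 and 226 CPM, against 365, 386, 345 and 325 CPM with AAV9.empty, at −0.85 (SE 0.10, adjusted p = 5.95e-04). For Cyp3a16, the newborn form, the values were 104, 86.7 and 142 CPM with rAAV9-ST3GAL5.v1 and 207, 237, 208 and 203 CPM with AAV9.empty, at −0.94 (SE 0.15, adjusted p = 0.00207). Both were lower in every liver with rAAV9-ST3GAL5.v1. Cyp3a13 did not follow, at 0.15 (SE 0.13, adjusted p = 0.431).

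In family 4, the largest fall of all members was that of Cyp4f14, an omega-hydroxylase of leukotriene B4 (chr17:32905070-32917342). It had 0.336, 0.344 and 0.244 CPM with rAAV9-ST3GAL5.v1, against 6.82, 3.19, 3.19 and 3.30 CPM with AAV9.empty, the log2 fold change being −3.72 (SE 0.41, adjusted p = 3.85e-04). Replicate 1 of AAV9.empty was the highest by far, yet the other 3 were also above every liver with rAAV9-ST3GAL5.v1. Cyp4f15, on the same chromosome, had 11.8, 9.93 and 21.6 CPM, against 49.9, 42.8, 43.3 and 35.3 CPM with AAV9.empty, at −1.55 (SE 0.24, adjusted p = 0.00185). Cyp4a10, a fatty acid omega-hydroxylase and target of PPAR-alpha, had 31.8, 12.9 and 38.6 CPM, against 98.5, 82.9, 97.6 and 69.6 CPM with AAV9.empty, at −1.64 (SE 0.31, adjusted p = 0.0045). The groups of both were separate. For Cyp4a14, another target of PPAR-alpha, the values were 268, 122 and 372 CPM with rAAV9-ST3GAL5.v1 and 510.5, 474, 455 and 414 CPM with AAV9.empty, and −0.86 (SE 0.29, adjusted p = 0.0545) missed the threshold.

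The other members changed by less than 2-fold or did not pass against AAV9.empty. Cyp2a12 and Cyp2b9 were lower with rAAV9-ST3GAL5.v1, at −0.71 (SE 0.20, adjusted p = 0.0293) and −0.61 (SE 0.10, adjusted p = 0.00259). So were Cyp3a44 at −0.56 and Cyp3a59 at −0.93 (adjusted p = 0.00267 and 0.03), and Cyp4f13 at −0.44 (adjusted p = 0.00949). Cyp2r1, a vitamin D hydroxylase, stood at −0.68, Cyp2s1 at −0.28, Cyp2j6 at −0.34, Cyp2j9 at 0.16, Cyp2u1 at −0.68 and Cyp2g1 at −1.27, with adjusted p of 0.0877 to 0.76. In family 4, Cyp4a31, Cyp4a32, Cyp4b1 and Cyp4v3 stood at −0.35, 0.10, −0.49 and −0.14, and Cyp4f16, Cyp4f17, Cyp4f18 and Cyp4f39 at 0.12, 0.59, 0.21 and 0.59, with adjusted p of 0.0539 to 0.813. Cyp2b10, a target of CAR, had 0.0479, 0 and 0.406 CPM with rAAV9-ST3GAL5.v1, 0.50, 0.747 and 1.23 CPM with the E332K vector, 0.748, 0.785, 0.378 and 0.0971 CPM with AAV9.empty and 1.21, 1.26, 0.877 and 1.42 CPM with PBS, few counts in any liver. Without replicate 3 of rAAV9-ST3GAL5.v1, 22 members were called lower, and without replicate 1, 12 were.

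**Figure D3:**
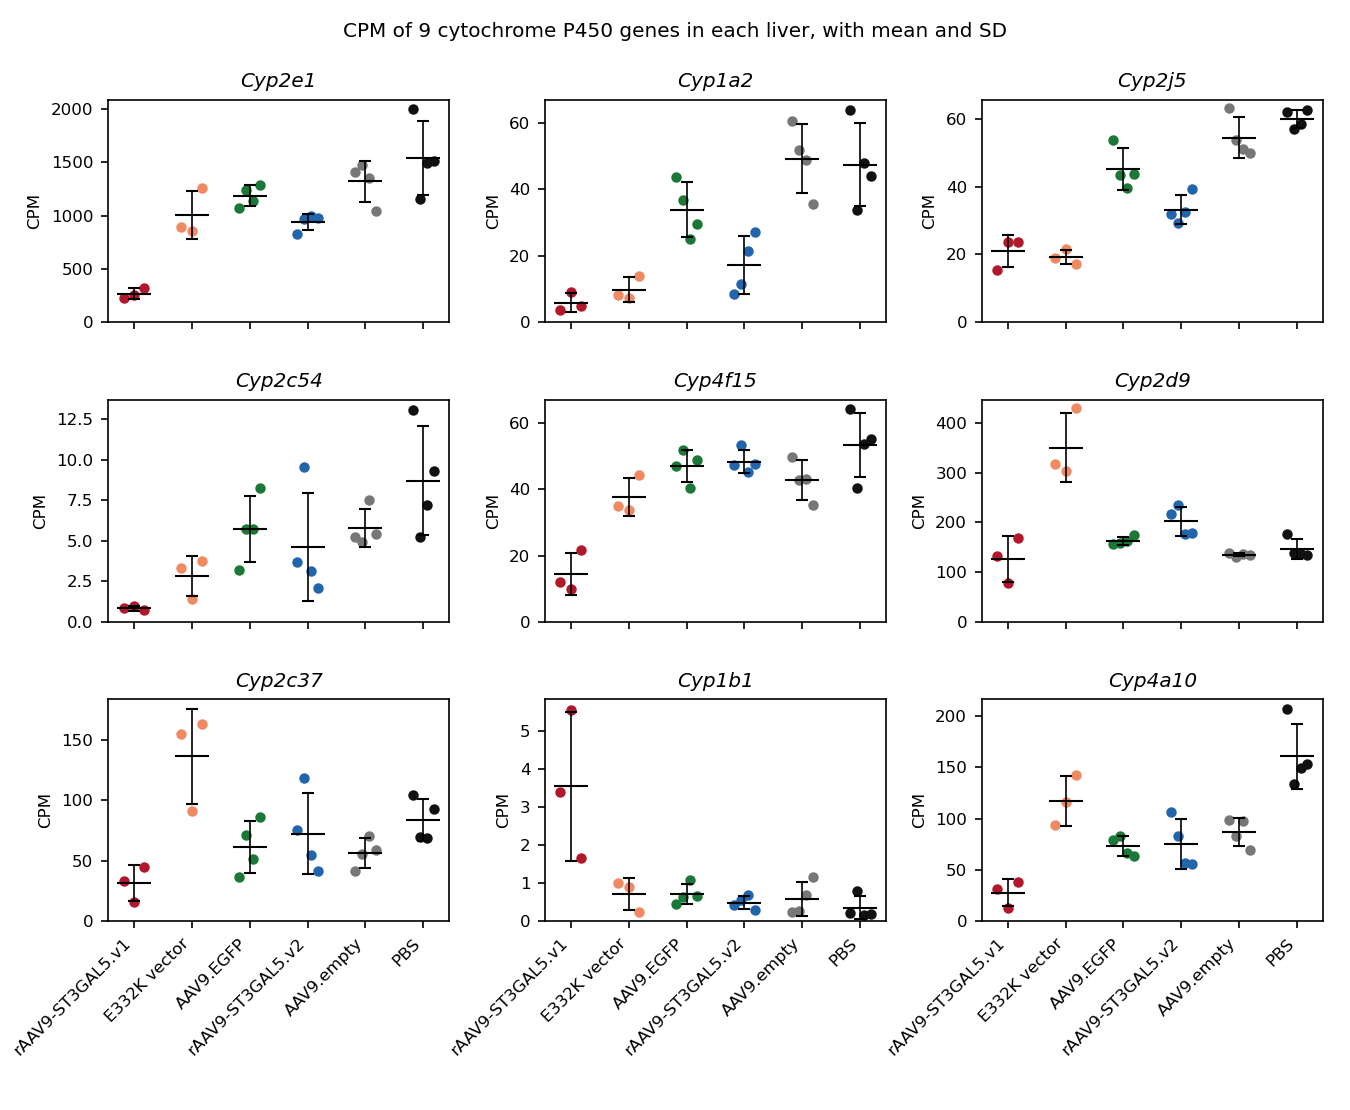
CPM (vertical axes, linear from 0) of 9 members in each liver (points), by group, with mean and SD (bars, n = 3 or 4). Cyp2e1 and Cyp4f15 have their lowest livers with rAAV9-ST3GAL5.v1. Cyp1a2, Cyp2j5 and Cyp2c54 are low with rAAV9-ST3GAL5.v1 and the E332K vector. With rAAV9-ST3GAL5.v2, Cyp1a2 and Cyp2j5 are also lower than with AAV9.empty, while Cyp2c54 has livers on both sides of those with AAV9.empty. Cyp2d9 and Cyp2c37 are high with the E332K vector, and Cyp4a10 has its highest mean with PBS.

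Members also fell with rAAV9-ST3GAL5.v1 when the other vectors were the controls, in comparisons that share the livers given rAAV9-ST3GAL5.v1. Against AAV9.EGFP, 17 of 50 members were lower and 2 higher, where 3.9% and 3.72% of all genes were. Against rAAV9-ST3GAL5.v2, the counts were 15 lower and 1 higher of 50, where 2.92% and 4.13% of all genes were. Cyp2e1 had 221, 256 and 323 CPM with rAAV9-ST3GAL5.v1, against 1071, 1243, 1136 and 1289 CPM with AAV9.EGFP and 827, 971, 995 and 973 CPM with rAAV9-ST3GAL5.v2. These gave log2 fold changes of −2.16 (SE 0.13, adjusted p = 1.80e-04) and −1.80 (SE 0.14, adjusted p = 2.61e-04). Cyp2c54, Cyp1a2 and Cyp4f14 stood at −2.79, −2.54 and −3.03 against AAV9.EGFP (adjusted p = 8.82e-04, 8.31e-04 and 0.00153). Against rAAV9-ST3GAL5.v2, Cyp2c54, Cyp2f2 and Cyp4f14 stood at −2.43, −2.27 and −2.27 (adjusted p = 0.0123, 0.0327 and 0.00572). Cyp1b1 was higher in both, at 2.30 and 2.87 (adjusted p = 0.0057 and 0.00362). Cyp2a4 was called higher against AAV9.EGFP, at 1.75 (SE 0.47, adjusted p = 0.0235), a call lost in 5 of 7 fits that each left out 1 liver. These counts depended on single livers. Without replicate 1 of rAAV9-ST3GAL5.v1, 11 members were lower than with AAV9.EGFP and 6 lower than with rAAV9-ST3GAL5.v2, and against rAAV9-ST3GAL5.v2 Cyp2c54 was not called (adjusted p = 0.051). Without replicate 1 of rAAV9-ST3GAL5.v2, 8 were lower, and counts of 10 stood without its replicate 2 and without replicate 2 of rAAV9-ST3GAL5.v1. Cyp2f2 lost its call in all of these 4 fits against rAAV9-ST3GAL5.v2 (adjusted p = 0.0682 to 0.117).

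The livers alike in Gm47283 gave a partly different picture. The 3 livers with rAAV9-ST3GAL5.v1 had no count of it, like replicates 1, 2 and 4 of AAV9.EGFP, and between these 16 members were lower and 1 higher, where 3.52% and 3.41% of all genes were. Of the 19 members called with all livers, 17 were called there, with Cyp2e1 at −2.17 (adjusted p = 8.76e-04) and Cyp1a2 at −2.66 (adjusted p = 0.00272). Against replicates 3 and 4 of rAAV9-ST3GAL5.v2, 7 were lower, where 1.07% of all genes were, all 16 members called with all livers keeping their sign. Cyp2f2 stood there at −0.80 (adjusted p = 0.222). Against replicate 4 of AAV9.empty, the only such liver of its group, 0 of the 16 called members passed by edgeR and all 16 kept their sign, where 0% of all 15871 genes were called, with Cyp2e1 at −1.96 (adjusted p = 0.102). A single liver there is assumed to vary like the other group.

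The E332K vector gave a mixed picture. Against AAV9.empty, 6 of 51 members rose and 5 fell by at least 2-fold, where 1.84% of 14759 genes rose and 1.25% fell. Without a minimum fold, 10 rose and 7 fell, where 7.93% and 7.09% of all genes did. The median over the members was 0.05, against −0.0023 over all genes. Groups did not overlap for 11 higher and 7 lower members, where 13.8% and 13.1% of all genes were separate. The summed TPM was 92.4% of the AAV9.empty mean.

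Those that fell were Cyp1a2, Cyp4f14, Cyp2g1, Cyp2j5 and Cyp2c54. Cyp1a2 had 8.11, 7.08 and 13.9 CPM with the E332K vector, against 60.6, 51.8, 48.9 and 35.4 CPM with AAV9.empty, the log2 fold change being −2.36 (SE 0.23, adjusted p = 3.18e-05). Cyp4f14 had 1.10, 0.399 and 1.23 CPM, against 6.82, 3.19, 3.19 and 3.30 CPM with AAV9.empty, at −2.21 (SE 0.41, adjusted p = 0.00366). Cyp2j5 had 19, 21.4 and 17.2 CPM with the E332K vector, against 63.2, 53.7, 51.2 and 49.8 CPM with AAV9.empty, at −1.51 (SE 0.11, adjusted p = 4.01e-06). None of these groups overlapped. Cyp2c54 at −1.05 (SE 0.29, adjusted p = 0.0317) and Cyp2g1, an enzyme of the olfactory mucosa at 0.450, 0.249 and 0.368 CPM against 1.26, 1.73, 0.702 and 1.07 CPM with AAV9.empty, at −1.74 (SE 0.45, adjusted p = 0.0224), were less firm. The call of each was lost in 4 of the 7 fits that left out 1 liver, those without replicates 1 or 2 of the E332K vector for both, without replicate 1 or 3 of AAV9.empty for Cyp2c54, and without replicate 3 of the E332K vector or 2 of AAV9.empty for Cyp2g1, with adjusted p of 0.0521 to 0.0866. Cyp2c23 (−0.44) and Cyp3a16 (−0.39) also passed, below 2-fold.

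Those that rose were Cyp2u1, Cyp2a4, Cyp2d9, Cyp2c67, Cyp2c37 and Cyp4a32. Cyp2d9 had 317, 304 and 429 CPM with the E332K vector, against 139, 131, 136 and 134 CPM with AAV9.empty, the log2 fold change being 1.37 (SE 0.12, adjusted p = 1.17e-05). Each liver with the E332K vector was above each with AAV9.empty. Cyp2c37 had 155, 91.4 and 163 CPM, against 41.3, 55.6, 70.9 and 59.0 CPM with AAV9.empty, at 1.26 (SE 0.20, adjusted p = 0.00132), and Cyp2c67 had 21.6, 20.0 and 15.2 CPM, against 5.51, 7.38, 9.62 and 7.96 CPM with AAV9.empty, at 1.31 (SE 0.18, adjusted p = 5.19e-04). The groups of both were separate. Cyp2u1, a fatty acid hydroxylase, had 5.05, 5.28 and 8.11 CPM with the E332K vector, against 1.87, 2.20, 2.38 and 1.75 CPM with AAV9.empty, at 1.57 (SE 0.23, adjusted p = 7.94e-04). Cyp2a4 at 1.45 (SE 0.35, adjusted p = 0.0165) was at 0.80 (adjusted p = 0.0614) without replicate 3 of the E332K vector, its highest liver. That liver had 52253 TPM of red cell genes (13 genes), where replicates 1 and 2 had 103443 and 111544 TPM, and it had the highest summed P450 level of its group. Cyp4a32 at 1.06 (SE 0.27, adjusted p = 0.0209) was not called without that liver (adjusted p = 0.0967) or without replicate 1 of AAV9.empty (0.0514), and the part of the red cell genes in these calls was not tested. Cyp2b13, Cyp2d10, Cyp4a31 and Cyp4f13 passed below 2-fold, at 0.82, 0.66, 0.53 and 0.46 (adjusted p = 0.0066, 0.00227, 0.0016 and 0.0141).

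The 3 copies Cyp2c37, Cyp2c50 and Cyp2c54 stood at 1.26, 0.78 and −1.05 with the E332K vector, and their coding sequences are 95.1% to 96.1% identical. Cyp2c50 had 10.9, 5.43 and 12.2 CPM, against 3.88, 4.66, 6.27 and 7.14 CPM with AAV9.empty, and did not pass (adjusted p = 0.0707). The abundant Cyp2e1 had 889, 853 and 1262 CPM with the E332K vector, against 1408, 1479, 1352 and 1044 CPM with AAV9.empty, with overlap and −0.41 (SE 0.15, adjusted p = 0.09). Among the 3 livers of AAV9.empty alike in Gm47283, it passed at −0.51 (adjusted p = 0.0406), below 2-fold, and all 11 called members were called there too.

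**Figure D4:**
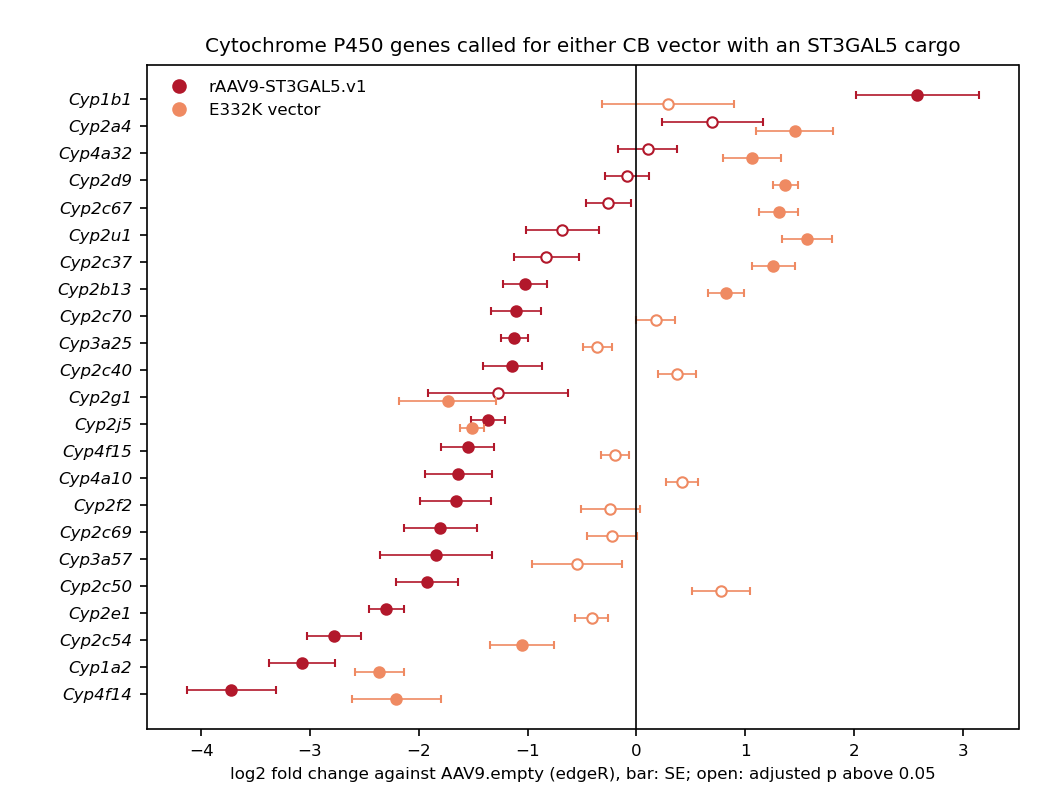
Log2 fold change against AAV9.empty (horizontal axis; bars, SE) of the 23 members called for rAAV9-ST3GAL5.v1 or for the E332K vector, with rAAV9-ST3GAL5.v1 above the E332K vector in each row. Open points have an adjusted p above 0.05. Both vectors are compared with the same 4 livers, and the points are far apart for Cyp2e1, Cyp2c50 and Cyp4a10 and close for Cyp2j5.

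A direct comparison of rAAV9-ST3GAL5.v1 with the E332K vector, whose labels differ by E332K alone, used no shared control. With rAAV9-ST3GAL5.v1, 16 of 48 members were lower and 1 higher, where 3.07% and 3.87% of 14742 genes were. Without a minimum fold, 28 were lower and 2 higher, where 10% and 9.55% of all genes were, and the groups did not overlap for 34 lower and 4 higher, where 23% and 19.9% of all genes were separate. The median over the members was −0.87. Cyp2c50 had 1.05, 1.42 and 1.79 CPM with rAAV9-ST3GAL5.v1, against 10.9, 5.43 and 12.2 CPM with the E332K vector, the log2 fold change being −2.70 (SE 0.35, adjusted p = 0.00401). Cyp2u1 stood at −2.24 (SE 0.36, adjusted p = 0.00741) and Cyp2c37 at −2.08 (SE 0.36, adjusted p = 0.00882). For Cyp4a10 the values were 31.8, 12.9 and 38.6 CPM with rAAV9-ST3GAL5.v1 and 93.9, 116 and 143 CPM with the E332K vector, at −2.05 (SE 0.35, adjusted p = 0.00862). Cyp2e1 gave −1.88 (SE 0.20, adjusted p = 0.00288). In each of these the groups were separate. Cyp1b1 was higher at 2.30 (SE 0.56, adjusted p = 0.0249).

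Cyp1a2 and Cyp2j5, low with both vectors, gave −0.71 (SE 0.37, adjusted p = 0.206) and 0.16 (SE 0.18, adjusted p = 0.557) between them and did not pass, which does not show that their levels were the same. Cyp2c54, also called lower with each vector, was lower with rAAV9-ST3GAL5.v1 than with the E332K vector, at −1.73 (adjusted p = 0.0241). That call was lost without replicate 1 of either group or replicate 3 of the E332K vector (adjusted p = 0.0806 to 0.0938). Cyp4f14, called lower with each vector as well, was not tested in this comparison. The number of members lower was 8 without replicate 1 of rAAV9-ST3GAL5.v1, 8 without replicate 3 of the E332K vector, 11 without its replicate 1 and 23 without replicate 3 of rAAV9-ST3GAL5.v1. Cyp1b1 was called in 2 of these 6 fits. Since no liver with rAAV9-ST3GAL5.v1 and every liver with the E332K vector had counts of Gm47283, the cargo and whatever that gene marks cannot be told apart in this comparison.

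With AAV9.EGFP, 0 of 50 members passed in edgeR against AAV9.empty, with or without a minimum fold, where 0.159% of 14473 genes rose and 0.00691% fell with it and 0.387% and 0.0553% did without it. At an unadjusted p under 0.05, 5 were higher and 7 lower, and DESeq2 called 1, lower. The groups did not overlap for 1 higher and 1 lower member, where 3.7% and 2.96% of all genes were separate. Cyp1a2 had 43.8, 36.8, 25.1 and 29.6 CPM with AAV9.EGFP, against 60.6, 51.8, 48.9 and 35.4 CPM with AAV9.empty, with overlap and −0.54 (SE 0.17, adjusted p = 0.207). Cyp2e1 stood at −0.15 (SE 0.0979, adjusted p = 0.549) and Cyp2j5 at −0.27 (SE 0.0968, adjusted p = 0.274).

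With rAAV9-ST3GAL5.v2, 2 of 51 members fell and 1 rose against AAV9.empty, where 0.131% and 0.46% of 14558 genes did. Cyp1a2 had 8.37, 11.4, 21.3 and 27.2 CPM with rAAV9-ST3GAL5.v2, against 60.6, 51.8, 48.9 and 35.4 CPM with AAV9.empty, the log2 fold change being −1.51 (SE 0.29, adjusted p = 0.0144). Cyp4f14 had 1.97, 1.89, 0.947 and 1.29 CPM, against 6.82, 3.19, 3.19 and 3.30 CPM with AAV9.empty, at −1.43 (SE 0.32, adjusted p = 0.0257), and Cyp2j9, an arachidonate hydroxylase, had 2.13, 1.34, 2.31 and 1.69 CPM, against 0.701, 0.837, 0.756 and 1.12 CPM, at 1.14 (SE 0.30, adjusted p = 0.0458). The groups of the 3 genes were separate. The call of Cyp1a2 was lost without replicate 2 of AAV9.empty (adjusted p = 0.0536), that of Cyp4f14 without replicate 1 or 2 of AAV9.empty and without replicate 3 or 4 of rAAV9-ST3GAL5.v2 (0.0515 to 0.0793), and that of Cyp2j9 without any liver but replicate 2 of rAAV9-ST3GAL5.v2 (0.0537 to 0.126). Without a minimum fold, Cyp2j5 (−0.71), Cyp2e1 (−0.48), Cyp3a16 (−0.47) and Cyp2c23 (−0.32) were lower as well, and Cyp2d9 (0.59) and Cyp2d10 (0.41) higher, in all 6 lower and 3 higher, where 2.5% and 2.88% of all genes were. The groups did not overlap for 7 lower and 6 higher, where 7.57% and 6.82% of all genes were separate.

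In some members, picked after their values were seen, the livers given rAAV9-ST3GAL5.v2 fell into pairs. Others did not split this way, such as Cyp2d26 with 664, 754, 706 and 653 TPM in replicates 1 to 4. The split was not counted over all members. Cyp2f2 had 71.8, 90.7, 12.2 and 23.5 CPM in replicates 1 to 4, Cyp2a5 7.41, 8.24, 1.21 and 2.03 CPM and Cyp2c50 6.88, 12.3, 2.89 and 2.98 CPM, higher in replicates 1 and 2 than in 3 and 4 each time, while Cyp1a2 was lower in replicates 1 and 2. Replicates 1 and 2 had counts of Gm47283 and 3 and 4 had none. The sum of 13 red cell genes was lower in replicates 1 and 2, with 69649, 49851, 102705 and 98584 TPM in replicates 1 to 4. Between replicates 1 and 2 and the 3 livers of AAV9.empty with such counts, Cyp1a2 stood at −2.45 (adjusted p = 1.02e-04), Cyp4f14 at −1.19 (adjusted p = 0.119) and Cyp2f2 at 1.17 (adjusted p = 0.0189), and 2 members were called higher and 1 lower, where 0.511% and 0.329% of all genes were. The same split was not seen throughout the other groups with both kinds of liver. In AAV9.EGFP, replicate 3, its only liver with counts of Gm47283, was lowest in Cyp2f2 (10.6 TPM) and in Cyp1a2 (16.3 TPM). In AAV9.empty, replicate 4, its only liver without them, was also lowest in both, at 14.4 and 23.7 TPM. The part of Gm47283, or of what it marks, and that of the red cell genes in these values was not tested.

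The empty capsid itself was compared with PBS. By edgeR 0 of 50 members were called, although Cyp2j9 and Cyp2b10 had log2 fold changes of −1.34 (SE 0.38, adjusted p = 0.149) and −1.24 (SE 0.47, adjusted p = 0.274). By the same thresholds, 0.00691% of 14476 genes fell and 0.0207% rose. At an unadjusted p under 0.05, 4 members were higher and 18 lower, DESeq2 called 0, and the members' median was −0.16. Without a minimum fold, 6 were lower and 0 higher, where 0.207% and 0.104% of all genes were. The groups did not overlap for 8 lower and 3 higher, where 3.27% and 3.68% of all genes were separate. Cyp3a25 had 61.0, 51.2, 50.7 and 44.3 CPM with AAV9.empty, against 86.2, 89.1, 95.1 and 111 CPM with PBS, the log2 fold change being −0.88 (SE 0.11, adjusted p = 0.00242). Cyp4a10 had 98.5, 82.9, 97.6 and 69.6 CPM, against 207, 134, 149.6 and 153 CPM with PBS, at −0.88 (SE 0.13, adjusted p = 0.0108). For Cyp3a59, the nearest copy of Cyp3a25, the values were 6.92, 4.34, 5.62 and 3.2 CPM with AAV9.empty and 9.63, 9.99, 9.64 and 9.91 CPM with PBS, at −0.96 (SE 0.19, adjusted p = 0.0465). All 3 were separate between the groups, as were Cyp4a14, Cyp4a31 and Cyp3a13 at −0.53, −0.47 and −0.52. These 6 genes are 3 of Cyp3a and 3 of Cyp4a. Over the 6 groups, the mean of Cyp4a10 was highest with PBS, at 161 ± 31.8 CPM (SD, n = 4), and lowest with rAAV9-ST3GAL5.v1, at 27.8 ± 13.3 CPM (SD, n = 3).

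The lists of other genes that follow were chosen with earlier results of these data known. Regulators of P450 genes were counted from a list of 25, of which 24 were tested against AAV9.empty with rAAV9-ST3GAL5.v1. Of these, 11 fell and 4 rose (adjusted p of at most 0.05), with a median log2 fold change of −0.29. Of all genes, 14.3% fell and 13.8% rose by this threshold, with a median of 0.02. Ppara, the receptor behind the Cyp4a genes, averaged 15.5 ± 7.15 CPM with rAAV9-ST3GAL5.v1 and 49.5 ± 6.04 CPM with AAV9.empty (SD, n = 3 and n = 4), at −1.66 (SE 0.26, adjusted p = 0.00184). Nr1i3, which encodes CAR, averaged 28.6 ± 14.8 and 62.6 ± 7.33 CPM in the same order, at −1.12 (SE 0.28, adjusted p = 0.0169). Hlf, a PAR bZIP factor, was at −1.68 (SE 0.20, adjusted p = 4.90e-04) and Foxa2 at −1.48 (SE 0.17, adjusted p = 5.18e-04). Hnf4a fell by little, at −0.27 (SE 0.0847, adjusted p = 0.0406). Cebpb rose to 173 ± 98.7 CPM, against 42.2 ± 6.88 CPM, at 2.05 (SE 0.31, adjusted p = 0.00153), and Nfe2l2, the oxidative stress factor NRF2, to 84.4 ± 0.861 CPM, against 49.4 ± 1.23 CPM, at 0.78 (SE 0.0665, adjusted p = 1.36e-04). Ahr at −0.31 (SE 0.11, adjusted p = 0.0645) and Nr1i2, which encodes PXR, at −0.06 (SE 0.0824, adjusted p = 0.61) did not pass. With the E332K vector, 5 of 24 rose and 2 fell, Ppara at −0.55 lower and Nr1i3 at 0.46 higher (adjusted p = 0.0106 and 0.0102).

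Of 10 tested electron donors and partner enzymes, 4 fell and 1 rose with rAAV9-ST3GAL5.v1 (median −0.21). Cyb5a, which encodes cytochrome b5, was at −0.44 (SE 0.0798, adjusted p = 0.00385), Cyb5r3 at −0.33, Ephx2, an epoxide hydrolase, at −0.38 and Pgrmc2 at −0.29 (adjusted p = 0.0273, 0.0247 and 0.0228 for the last 3). Por, the reductase of all microsomal P450 enzymes, averaged 215 ± 31.6 CPM with rAAV9-ST3GAL5.v1 and 245 ± 21.5 CPM with AAV9.empty, at −0.18 (SE 0.11, adjusted p = 0.261), and did not pass. Of 13 genes of heme synthesis and breakdown, 1 rose and 2 fell (median 0.12), shares close to those of all genes. Hmox1, the inducible heme oxygenase, averaged 299.7 ± 33.6 CPM, against 152 ± 22.7 CPM, at 0.99 (SE 0.13, adjusted p = 8.03e-04), while Hmox2 was at −0.40 and Alad at −0.28 (adjusted p = 0.0089 and 0.0454). Of 12 tested P450 genes of other families, 5 fell (median −0.46). Cyp7a1, which starts the making of bile acids, averaged 2.19 ± 2.97 CPM, against 25.1 ± 6.67 CPM, at −3.45 (SE 0.69, adjusted p = 0.00603). Cyp8b1 stood at −2.31, Cyp39a1 at −0.85 and Cyp26b1, which degrades retinoic acid, at −1.85 (adjusted p = 0.0119, 0.028 and 0.00127). With the E332K vector, 2 of 10 partners, 4 of 13 heme genes and 2 of 12 other P450 genes rose, where 7.93% of all genes did, so that the partners and other P450 genes stood about 1 gene above that share.

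Markers of the cells a liver holds were counted for rAAV9-ST3GAL5.v1 beside these falls, to be read against 13.8% of all genes higher and 14.3% lower. Of 20 secreted hepatocyte proteins, 12 fell and 4 rose, with a median log2 fold change of −0.36. Ttr was at −0.71, Apoa2 at −0.66 and Apoa1 at −0.65, and Fgb, an acute phase protein, at 0.99 (adjusted p = 9.77e-04, 0.00104, 0.00171 and 0.00316). Of 13 neutrophil genes, 12 rose, and their sum was 7408 to 8595 TPM with rAAV9-ST3GAL5.v1, against 4491 to 4820.4 TPM with AAV9.empty. Of 14 genes of the acute phase and NF-kB, 12 rose (median 3.47), Socs3 to 92.7 ± 38.3 CPM, against 9.59 ± 2.15 CPM, and Saa3 to 43.0 ± 18.1 CPM, against 1.33 ± 0.556 CPM. Erythroid genes rose in 4 of 13, and Kupffer cell and monocyte genes rose in 4 and fell in 6 of 15. Sinusoidal endothelial genes rose in 2 and fell in 6 of 12, and cholangiocyte genes rose in 3 of 7. Stellate cell genes rose in 3 and fell in 2 of 12, of which only the falls were near the share of all genes. With the E332K vector, hepatocyte genes rose in 3 and fell in 2 of 20, neutrophil genes rose in 5 and fell in 1 of 13, and acute phase genes rose in 5 and fell in 1 of 13, where 7.93% of all genes rose and 7.09% fell. Stellate cell genes rose in 1 and fell in 5 of 12, Kupffer cell and monocyte genes rose in 1 and fell in 3 of 15, sinusoidal endothelial genes rose in 1 and fell in 2 of 12, erythroid genes rose in 2 of 13 and cholangiocyte genes fell in 1 of 6. The part of these shifts in the values of the P450 genes was not tested.

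**Figure D5:**
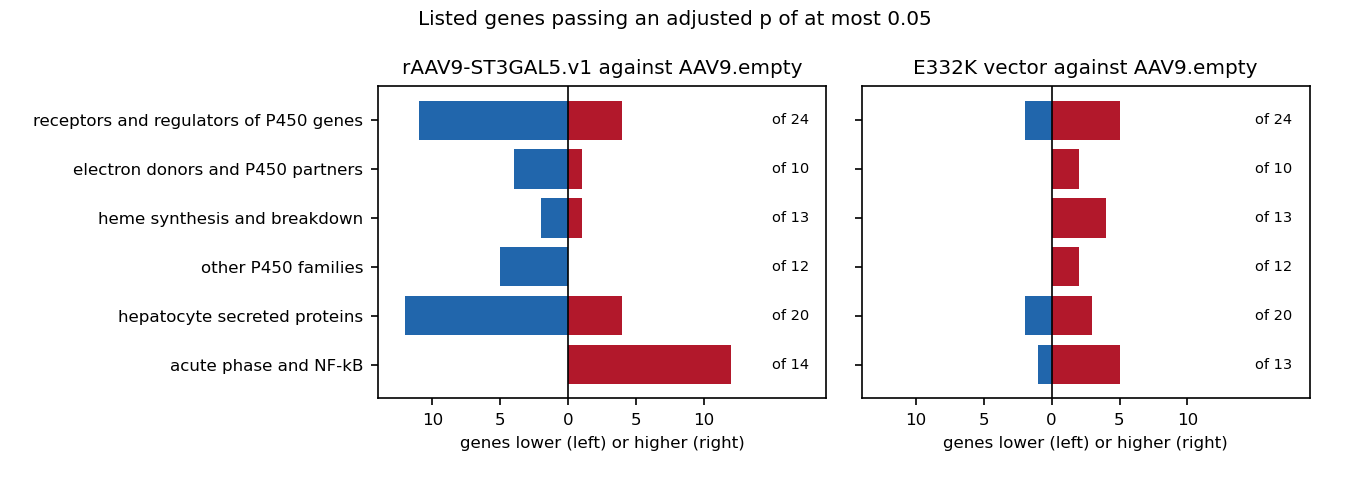
Number of genes lower (left of 0) and higher (right of 0) at an adjusted p of at most 0.05 in 6 lists (rows, with the number tested at the right), for rAAV9-ST3GAL5.v1 and the E332K vector against AAV9.empty. With rAAV9-ST3GAL5.v1, 11 of 24 regulators and 12 of 20 hepatocyte genes are lower and 12 of 14 acute phase genes higher.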

How the data were processed

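Liver RNA of 22 mice was selected with oligo(dT), with removal of ribosomal RNA added in the labels, made into libraries that do not keep the strand and sequenced in pairs. The authors trimmed reads with Trimmomatic, aligned them with STAR to mm10 and estimated levels with RSEM on a GENCODE annotation, whose release is not given in the sources used here. The deposited expected counts (5.69% of values not whole) were rounded and tested. The deposited TPM, which RSEM scales to transcript length and library total, served for levels between genes, sums and alternatives.

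Each pair of groups was fitted with edgeR 4.0.16 (quasi-likelihood F-test, TMM factors, filterByExpr) in R 4.3.3, with Benjamini-Hochberg adjustment over all genes tested. Called means an adjusted p of at most 0.05 and at least a 2-fold change, and for the lists of other genes the adjusted p alone. CPM used TMM factors over all 22 libraries. SE is that of the log2 fold change, taken as its absolute value divided by the square root of the F statistic. The E332K livers were analysed as labelled.

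Members were named by rule: the 8 with the highest mean TPM, family 1, the 8 called members with the largest change in each direction with rAAV9-ST3GAL5.v1 against AAV9.empty, the 3 in each other comparison, those nearest the threshold of the rule and members of subfamilies described. Of the lists, up to 4 genes with the smallest adjusted p and 6 preset regulators and partners were named, and any others after their values were seen. The members and lists were chosen with earlier results of these data known.

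Alternatives were DESeq2 1.42.0, its size factors in edgeR, other filters, all 6 groups in 1 fit, a replicate block, limma 3.58.1 on log2(TPM + 1) and log2(TPM + 0.1), no minimum fold, members with a mean count of at least 100, each liver left out and, chosen after seeing the data, livers alike in Gm47283. On simulated counts for rAAV9-ST3GAL5.v1 against AAV9.empty (14657 genes), edgeR called 49% of 100 genes changed by 2-fold and 99% of 100 changed by 4-fold. Since a call needs an estimated change of at least 2-fold, genes changed by exactly 2-fold can miss it by scatter alone. The changed genes were drawn from those with higher counts, so these shares do not hold for members with few counts.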

Additional observations from a re-analysis of the deposited data

Results flagged for a closer look

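Some livers stood apart from the other 3 of their group in a named gene, by Dixon's test of the gap to the nearest liver. In the PBS group, replicate 2 had 0.807 CPM of Cyp1b1, where the other 3 lay between 0.175 and 0.225 CPM. Replicate 4 had 2.90 CPM of Cyp2a4, below 4.21 to 4.45 CPM in the others, and replicate 1 had 175 CPM of Cyp2d9 and 4.68 CPM of Cyp4f14, above 134 to 138 CPM and 2.22 to 2.54 CPM in the others. In the AAV9.empty group, replicate 1 had 6.82 CPM of Cyp4f14, where the others had 3.19 to 3.30 CPM, and replicate 2 had 237 CPM of Cyp3a16, where the others had 203 to 208 CPM. In the rAAV9-ST3GAL5.v2 group, replicate 1 had 827 CPM of Cyp2e1, where the others had 971 to 995 CPM. Of 88 gene and group pairs of 4 livers looked at, 7 met this criterion, and chance gives about 1 in 20.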

How the results depend on the processing

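Of 540 values of the named genes under an alternative, 464 kept their direction and their side of the threshold, 60 lost it, 13 passed only there and 3 changed sign, none of these 3 passing the test. In rAAV9-ST3GAL5.v1 against AAV9.empty, Cyp2d9 (−0.08) ranged from −0.34 to 0.16 when 1 liver was left out, and Cyp2j9 (0.16) from −0.11 to 0.32, with −0.22 among livers alike in Gm47283. The causes were not tested. DESeq2, its size factors and TMM gave counts of members within 1.5 times of each other, except that DESeq2 called 1 member lower, against 0, for AAV9.EGFP.

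In the fits on log2(TPM + 1) and log2(TPM + 0.1) with a mean TPM of at least 1, and log2(TPM + 0.1) with no filter, in this order, limma called the following numbers of members. For rAAV9-ST3GAL5.v1 these were 0, 0 and 0 higher against AAV9.empty, 0, 0 and 0 higher against the E332K vector, 0, 0 and 1 higher and 10, 11 and 11 lower against AAV9.EGFP, and 7, 9 and 6 lower against rAAV9-ST3GAL5.v2. The first and the third gave 10 and 7 lower against the E332K vector, and the first 2 gave 0 higher against rAAV9-ST3GAL5.v2. Against AAV9.empty they gave 3, 3 and 3 higher with the E332K vector and 0, 0 and 0 higher with rAAV9-ST3GAL5.v2, for which the first and the third gave 1 lower each. On log2(TPM + 0.1) with a mean TPM of at least 1, the median over all genes shifted by 0.119 for rAAV9-ST3GAL5.v1 and −0.117 and −0.113 for the E332K vector and rAAV9-ST3GAL5.v2 against AAV9.empty.

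Without a minimum fold, 28 members were lower with rAAV9-ST3GAL5.v1 against AAV9.empty, 28 lower and 2 higher against the E332K vector, 29 lower against AAV9.EGFP and 25 lower against rAAV9-ST3GAL5.v2. Against AAV9.empty 10 were higher with the E332K vector and 6 lower and 3 higher with rAAV9-ST3GAL5.v2, and 6 were lower with AAV9.empty against PBS. Among members with a mean count of at least 100, rAAV9-ST3GAL5.v1 had 0 higher against AAV9.empty, the E332K vector and rAAV9-ST3GAL5.v2, and 1 higher and 11 lower against AAV9.EGFP, and against AAV9.empty the E332K vector had 2 lower and rAAV9-ST3GAL5.v2 0 higher and 1 lower. For rAAV9-ST3GAL5.v2 against AAV9.empty, 0 were higher with no filter on low counts, with a mean count of at least 10 and in 1 fit of all 6 groups, where 3 were lower with the E332K vector.

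Among livers alike in Gm47283, 0 were higher and 0 lower with rAAV9-ST3GAL5.v1 against AAV9.empty, 1 was higher against AAV9.EGFP and 0 were higher and 7 lower against rAAV9-ST3GAL5.v2, and 2 were higher and 1 lower with rAAV9-ST3GAL5.v2 against AAV9.empty. Fewer livers entered these fits.

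Leaving out 1 liver in turn gave, for rAAV9-ST3GAL5.v1, 12 to 22 lower and 1 to 2 higher against AAV9.empty, 8 to 23 lower and 0 to 1 higher against the E332K vector, 11 to 20 lower and 1 to 2 higher against AAV9.EGFP and 6 to 18 lower and 1 to 1 higher against rAAV9-ST3GAL5.v2. Against AAV9.empty it gave 4 to 7 higher and 3 to 5 lower with the E332K vector, 0 to 1 higher and 0 to 2 lower with rAAV9-ST3GAL5.v2 and 0 to 0 with AAV9.EGFP, and 0 to 0 higher and 0 to 1 lower with AAV9.empty against PBS. In every such fit, 12 of 16 called members stayed called with rAAV9-ST3GAL5.v1 against AAV9.empty, 7 of 11 with the E332K vector and 0 of 3 with rAAV9-ST3GAL5.v2.

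Replicate numbers did not pair the livers, with correlations of −0.203 to 0.214 over 27 same-numbered pairs, 6 of them over 0.1. The replicate block gave 0 higher with rAAV9-ST3GAL5.v2 against AAV9.empty, 1 higher with rAAV9-ST3GAL5.v1 against AAV9.EGFP and 8 lower against rAAV9-ST3GAL5.v2. Members with few counts, such as Cyp2b10, limit what can be seen.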
